A study of Mus musculus with 11 samples.

Results

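Genes of fatty acid oxidation and of peroxisomes were followed on 11 arrays of mouse kidney. A list of 36 genes was named by symbol, and 35 of them had at least 1 probe set that the array's annotation assigns to a single gene symbol. Acsl1, which activates long-chain fatty acids, was not matched and was not analysed here. The 35 measured genes are part of 18193 genes in all, and a gene with several probe sets is represented by the brightest on average. All arrays came from kidneys of embryonic day 17, wild-type or homozygous at Robo2, the gene of a Slit receptor. The R2E17 titles cover 1 wild-type array (replicate 3) and 1 Robo2 homozygous array (replicate 6). The R2NB titles cover 3 Robo2 homozygous arrays (replicates 3, 4 and 5), and the sources used here do not give the meaning of NB. The E17R2 titles cover 3 wild-type arrays (replicates 1, 3 and 7) and 3 Robo2 homozygous arrays (replicates 2, 8 and 9). The labels used here name no strain, no Robo2 allele and no pooling of kidneys.

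Fatty acids enter cells with the help of transport proteins and are activated to acyl-CoA. The carnitine shuttle carries long-chain acyl groups across the inner mitochondrial membrane, where acyl-CoA dehydrogenases, hydratases, dehydrogenases and thiolases shorten them in repeated cycles and pass electrons through the electron transfer flavoprotein. Peroxisomes shorten very long and branched chains, and their oxidases produce hydrogen peroxide, which catalase removes. In the kidney the proximal tubule depends strongly on fatty acid oxidation and is rich in peroxisomes. The nuclear receptor PPAR alpha, product of Ppara, controls many of these genes.

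The deposited intensities fell into 2 groups with different distributions: the 5 R2E17 and R2NB arrays, called the R2E17/R2NB set, and the 6 E17R2 arrays, called the E17R2 set. The median intensity was 47.1 to 53.4 in the first and 23.4 to 24.6 in the second. A level is therefore given here as log2 intensity minus the median over all genes of the same array, so that 1 unit is a doubling relative to that median. Levels of different genes are not compared, because probe sets differ in brightness. The lower quartile of genes lay 2.70 to 2.78 below the array median in the R2E17/R2NB set and 2.31 to 2.62 below it in the E17R2 set, so dim genes sat lower in the R2E17/R2NB set. Title set and normalization cannot be told apart. Robo2 had a level between -4.25 and -3.91 on the E17R2 homozygous arrays and between -3.15 and -2.67 on the E17R2 wild-type arrays. In the R2E17/R2NB set, Robo2 was at -3.44 on the wild-type array and between -4.20 and -3.52 on the homozygous arrays. On every array, wild-type included, Robo2 lay below the lower quartile of genes and was not shown to be above background. The labels used here do not say which part of Robo2 is altered, so the probe set may lie outside it.

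Several arrays stood apart in other measures. R2E17 wild-type replicate 3 had the highest 3' minus 5' difference of the control probe sets, 0.70 for Gapdh and 1.12 for Actb on the log2 scale, against -0.01 to 0.22 and 0.34 to 0.75 on the other 10 arrays. E17R2 homozygous replicate 9 had a mean level of 5.31 over 7 smooth muscle markers, against 0.96 to 2.41 on the other arrays. The mean level of 7 kidney markers was 2.16 to 2.44 in the R2E17/R2NB set, 1.60 to 1.82 on 5 arrays of the E17R2 set, and 0.96 on E17R2 homozygous replicate 9. No kidney marker fell below the 25th percentile of genes on any array. R2NB homozygous replicate 4 had mean levels of 4.17 over 7 liver markers, with Alb at 6.28, and of 2.07 over 7 adrenal markers. The liver mean was also 2.61 on E17R2 wild-type replicate 7 and 1.81 on E17R2 homozygous replicate 2, against -1.45 to 0.24 elsewhere. The adrenal mean was 1.98 and 1.675 on E17R2 wild-type replicates 1 and 3. It was 0.21 on E17R2 homozygous replicate 2 and -2.52 to -1.48 elsewhere. The labels do not say that replicates are separate animals, so the p-values cover the spread between samples only, and that spread may be technical.

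Most of the 35 genes were expressed well above the array median. Their median level was 2.73 to 2.90 on the arrays of the R2E17/R2NB set and 1.97 to 2.36 on those of the E17R2 set. In percentiles of all genes, the median member stood at 87.4 to 89.5 in the R2E17/R2NB set and at 78.5 to 83.6 in the E17R2 set, and the ranges do not overlap. On every E17R2 array, 6 members were below the array median: Acsm3, Acox2, Acox3, Ehhadh, Decr2 and Ppara.

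**Figure D1:**
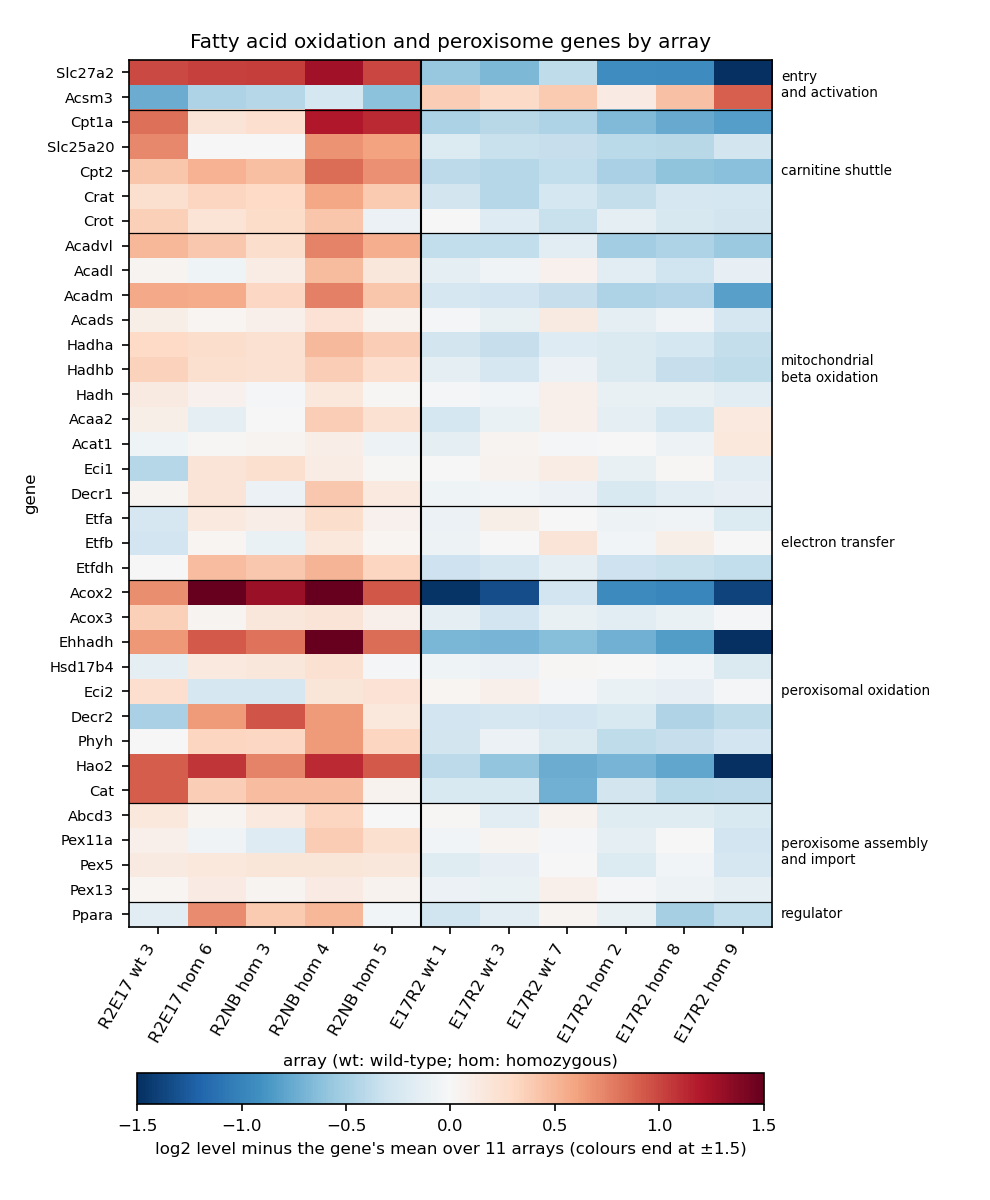
Each cell gives the log2 level of a gene (vertical axis, by role) on an array (horizontal axis) minus that gene's mean over the 11 arrays, with colours ending at ±1.5. The R2E17/R2NB set is left of the black line and is red for most genes; Acsm3 is blue there.

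The contrast between the sets was tested with limma over all 18193 genes. Of the 35 members, 23 were higher and 1 was lower in the R2E17/R2NB set at a Benjamini-Hochberg adjusted p under 0.05. The background to this count is large, since 18.4% of all genes were called higher and 42.1% lower. The median difference of the members was 0.43 on the log2 scale, whereas the median over all genes was -0.17. After quantile normalization over all 11 arrays the median over all genes was -0.03, 24.3% of genes were called higher and 26.3% lower, and 25 members were higher and 1 lower, with a member median of 0.55. Of the 30 members among the 9096 genes with the higher mean levels, 19 were called higher and 0 lower, beside 24% and 30.9% of those genes. On 17 members every array of the R2E17/R2NB set lay above every array of the E17R2 set, which held for 12.4% of all genes, and on 1 member, Acsm3, every array lay below, which held for 30.2%. In whole kidneys, a change in the number of cells of a type and a change in RNA per cell cannot be told apart.

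**Figure D2:**
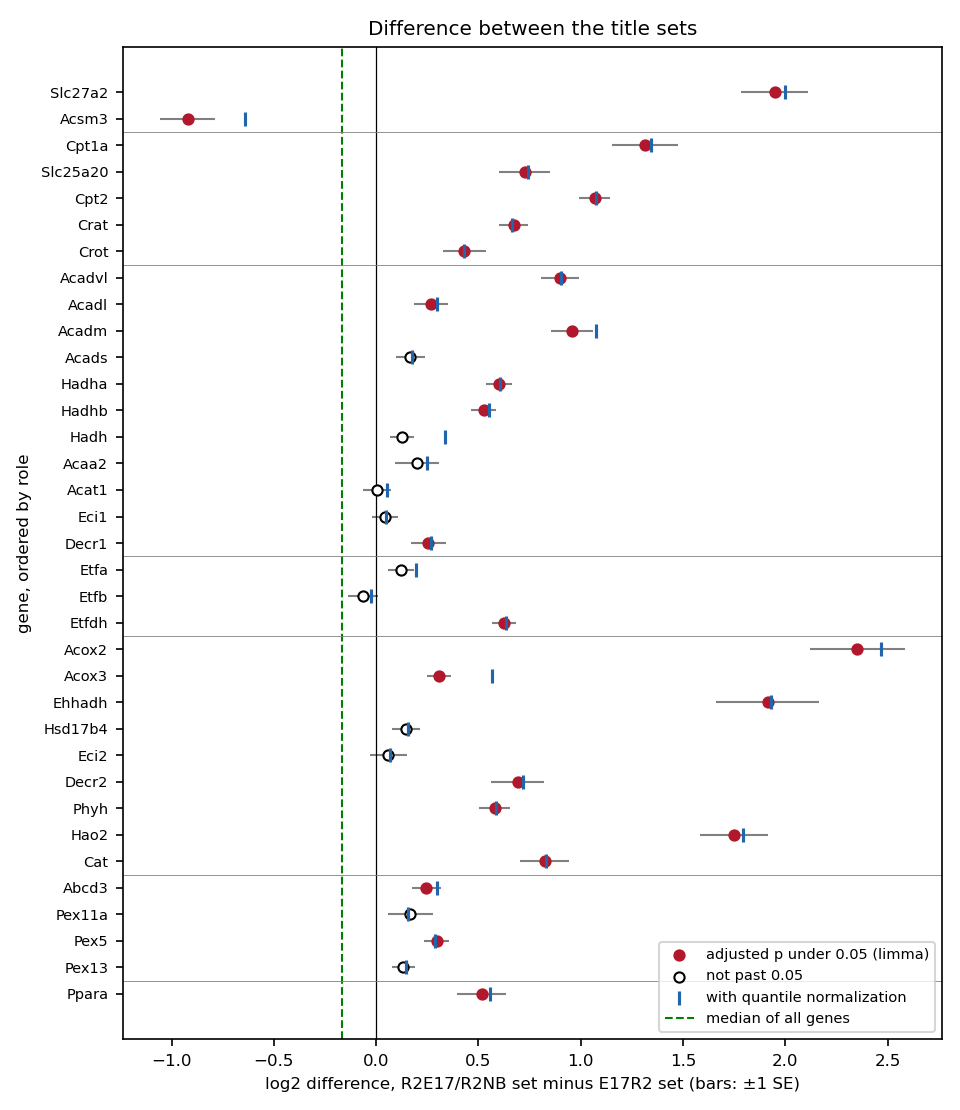
Points give the log2 difference between the R2E17/R2NB set and the E17R2 set for each member (bars ±1 SE, 5 against 6 arrays), filled where the limma adjusted p is under 0.05, and blue ticks give the difference after quantile normalization. All members except Acsm3 lie to the right of the dashed median of all genes at -0.17.

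Among the 2 measured genes of fatty acid entry and activation, 1 rose and 1 fell in the R2E17/R2NB set. Slc27a2 encodes a very long-chain acyl-CoA synthetase and fatty acid transporter that is abundant in proximal tubule and liver. Its level was 4.11 and 4.15 on the R2E17 wild-type and homozygous arrays and 4.16, 4.38 and 4.12 on R2NB replicates 3, 4 and 5. In the E17R2 set it ran from 1.33 (homozygous replicate 9) through a median of 2.32 to 2.74 (wild-type replicate 7), so the sets were far apart. The difference was 1.95 ± 0.16 (SE, limma adjusted p = 3.06e-05, 5 against 6 arrays), and 1.77 without E17R2 homozygous replicate 9. Acsm3 encodes a medium-chain acyl-CoA synthetase of mitochondria. Its level was -3.23 and -2.94 on the R2E17 arrays and -2.91, -2.75 and -3.10 on R2NB replicates 3, 4 and 5, against -2.36 to -1.58 with a median of -2.10 in the E17R2 set. All arrays of the R2E17/R2NB set were lower, by -0.92 ± 0.13 (SE, limma adjusted p = 0.00047), and by -0.64 after quantile normalization. Acsm3 is a dim probe set that stood at the 19.7 to 32.7 percentile of genes.

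All 5 genes of the carnitine shuttle were higher in the R2E17/R2NB set, with a median difference of 0.73. Cpt1a encodes the outer-membrane carnitine palmitoyltransferase, the main control point of mitochondrial fatty acid entry. Its level was 3.62 (wild-type) and 2.99 (homozygous) in the R2E17 pair and 3.05, 3.99 and 3.92 on R2NB replicates 3, 4 and 5. In the E17R2 set it ran from 1.97 through a median of 2.23 to 2.38. The sets did not overlap, although the R2E17/R2NB set spanned 1 log2 unit by itself. The difference was 1.32 ± 0.16 (SE, limma adjusted p = 0.000193). Cpt2 encodes the inner-membrane transferase, and its level was 2.73 and 2.84 in the R2E17 pair and 2.77, 3.15 and 3.00 on the R2NB arrays, against 1.68 to 1.94 with a median of 1.85 in the E17R2 set. This gap between narrow groups gave 1.07 ± 0.08 (SE, limma adjusted p = 1.64e-05). Slc25a20, the carnitine-acylcarnitine carrier, differed by 0.73 ± 0.12, Crat, which makes acetylcarnitine, by 0.67 ± 0.07, and Crot, which makes carnitine esters of peroxisomal products, by 0.43 ± 0.10 (SE, limma adjusted p = 0.00108, 7.38e-05 and 0.00681). Crot was the only shuttle gene whose sets overlapped. With the mean over all probe sets of a gene in place of the brightest, all 5 were still called, but Cpt2 differed by 0.24, Crat by 0.20 and Crot by 0.20.

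**Figure D3:**
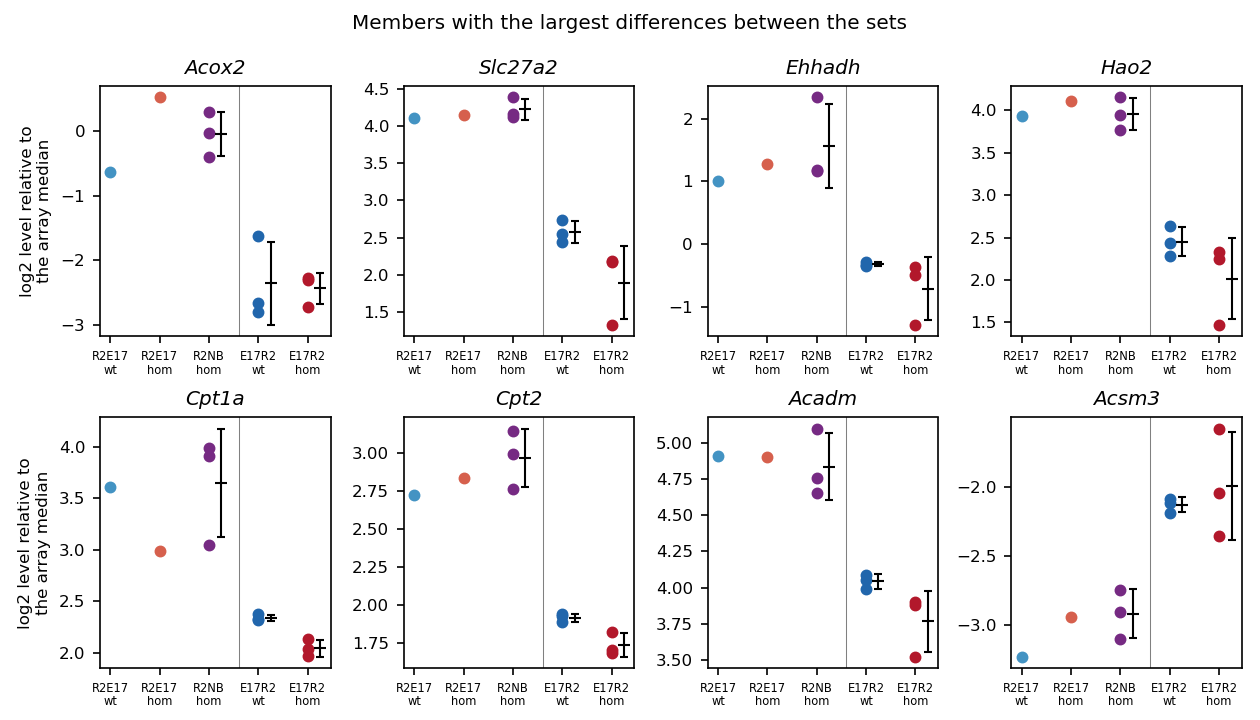
Log2 level relative to the array median (vertical axes, scaled per gene) for the 8 called members with the largest differences, by group (horizontal axis; wt wild-type, hom homozygous). Each point is an array, and black bars give the mean ± SD of groups of 3; in each panel no array of the R2E17/R2NB set left of the line overlaps the E17R2 set right of it.

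Of the 11 genes of the mitochondrial beta-oxidation spiral, 6 were higher in the R2E17/R2NB set and 0 lower, with a median difference of 0.26. Acadm, the medium-chain acyl-CoA dehydrogenase, was at 4.91 and 4.90 in the R2E17 pair and at 4.65, 5.09 and 4.76 on R2NB replicates 3, 4 and 5. In the E17R2 set it was at 3.53 to 4.09 with a median of 3.95. The sets were apart by 0.96 ± 0.10 (SE, limma adjusted p = 9.56e-05). Acadvl, the very long-chain acyl-CoA dehydrogenase, was at 3.10 and 3.00 in the R2E17 pair and at 2.87, 3.35 and 3.15 on the R2NB arrays, against 2.05 to 2.43 with a median of 2.19. Again the sets did not overlap, and they differed by 0.90 ± 0.09 (SE, limma adjusted p = 7.38e-05). Hadha and Hadhb, the subunits of the trifunctional protein that catalyses the last steps for long chains, differed by 0.60 ± 0.07 and 0.53 ± 0.06 (SE, limma adjusted p = 0.0001 and 0.000126). Acadl, the long-chain dehydrogenase, and Decr1, a reductase for unsaturated chains, differed by 0.27 ± 0.08 and 0.26 ± 0.09 (SE, limma adjusted p = 0.0225 and 0.0289). For both genes the sets overlapped. The call of Acadl was lost without R2NB replicate 4 (limma adjusted p = 0.0592) or E17R2 homozygous replicate 8, and that of Decr1 without E17R2 homozygous replicate 2 (limma adjusted p = 0.0645), E17R2 homozygous replicate 8 or R2NB replicate 5. With the mean over probe sets, Acadl was lower in the R2E17/R2NB set (-0.14). Its call was also lost with equal group weights (0.195). For the R2E17 pair against the E17R2 arrays, Acadl and Decr1 differed by 0.11 and 0.23 and were not called. For the R2NB arrays against the E17R2 homozygous arrays they differed by 0.45 and 0.32 and were called.

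The remaining genes of the spiral did not pass the test. Acads, the short-chain dehydrogenase, differed by 0.17, Acaa2, a thiolase, by 0.20, and Hadh, the hydroxyacyl-CoA dehydrogenase, by 0.13. Acat1, the acetoacetyl-CoA thiolase, differed by 0.01 and Eci1, an enoyl-CoA isomerase, by 0.04. Acat1 passed with the mean over probe sets (0.26, limma adjusted p = 0.00549). Acads passed under that setting too (0.25, limma adjusted p = 0.00962), although it has 1 probe set and moved with the array median alone, and without E17R2 wild-type replicate 7 (0.21, limma adjusted p = 0.0236). Hadh passed the test after quantile normalization (difference 0.34, limma adjusted p = 0.0023), and in the opposite direction with the mean over probe sets (-0.18, limma adjusted p = 0.0116). Of the 3 electron transfer genes, Etfdh, the oxidoreductase that hands electrons to ubiquinone, rose by 0.62 ± 0.06 (SE, limma adjusted p = 5.25e-05). With the mean over its probe sets the difference was 0.09 and did not pass. The flavoprotein subunits Etfa and Etfb differed by 0.12 and -0.06, and neither passed, although Etfa did after quantile normalization (0.20, limma adjusted p = 0.0455) and without R2E17 wild-type replicate 3 (0.20, limma adjusted p = 0.0335).

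Among the 9 genes of peroxisomal oxidation, 7 were higher in the R2E17/R2NB set and 0 lower, with a median difference of 0.69. Acox2 encodes the oxidase for branched chains and bile acid intermediates. Its level was -0.63 (wild-type) and 0.53 (homozygous) in the R2E17 pair and -0.03, 0.30 and -0.39 on R2NB replicates 3, 4 and 5, against -2.80 to -1.62 with a median of -2.48 in the E17R2 set. All arrays of the R2E17/R2NB set were higher, and the difference of 2.35 ± 0.23 (SE, limma adjusted p = 6.23e-05) was the largest among the members. On the E17R2 arrays Acox2 stood at the 20.2 to 33.2 percentile of genes. These levels were not shown to be above background, so the size is uncertain. Ehhadh encodes the peroxisomal bifunctional enzyme, a well-known PPAR alpha target. Its level was 0.999 and 1.27 in the R2E17 pair and 1.16, 2.34 and 1.19 on the R2NB arrays, and -1.29 to -0.29 with a median of -0.36 in the E17R2 set. R2NB replicate 4, the array with a liver marker mean of 4.17, was highest by more than 1 log2 unit. E17R2 homozygous replicate 9 was lowest. The part of liver markers in the level of Ehhadh was not tested. The difference was 1.91 ± 0.25 (SE, limma adjusted p = 0.000268).

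Hao2, a hydroxyacid oxidase of kidney and liver peroxisomes, was at 3.94 and 4.11 in the R2E17 pair and at 3.77, 4.15 and 3.95 on R2NB replicates 3, 4 and 5. In the E17R2 set it was at 1.47 to 2.63 with a median of 2.31. The sets were apart by 1.75 ± 0.17 (SE, limma adjusted p = 5.08e-05). Cat, which encodes catalase, was at 3.09 and 2.55 in the R2E17 pair and at 2.65, 2.64 and 2.23 on the R2NB arrays, against 1.46 to 1.96 with a median of 1.85. It was highest on R2E17 wild-type replicate 3, and the sets differed by 0.83 ± 0.12 (SE, limma adjusted p = 0.000471). The other probe set of Cat, of like brightness (88.8 against 88.6 percentile of probe sets), differed by 0.30 only, so the size is uncertain. Decr2, the peroxisomal dienoyl-CoA reductase, differed by 0.69 ± 0.13 with overlapping sets, Phyh, which starts the breakdown of phytanic acid, by 0.58 ± 0.08, and Acox3, a branched-chain oxidase, by 0.31 ± 0.06 (SE, limma adjusted p = 0.00182, 0.000288 and 0.00197). Hsd17b4, the other bifunctional enzyme, and Eci2, an enoyl-CoA isomerase also found in mitochondria, differed by 0.15 and 0.06 and did not pass. Hsd17b4 passed without R2E17 wild-type replicate 3 (0.20, limma adjusted p = 0.0441) and with the mean over probe sets (0.19, limma adjusted p = 0.048).

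Of the 4 genes of peroxisome assembly and import, 2 were higher in the R2E17/R2NB set and 0 lower, with a median difference of 0.21. Pex5, the receptor that brings matrix enzymes into the peroxisome, rose by 0.30 ± 0.06, and Abcd3, an acyl transporter of the peroxisomal membrane, by 0.25 ± 0.07 (SE, limma adjusted p = 0.00295 and 0.0176). With the mean over probe sets Abcd3 differed by 0.01 and did not pass. Pex11a, which takes part in peroxisome division, and Pex13, a docking protein of the import machinery, differed by 0.17 and 0.13 and did not pass. Pex11a passed with the mean over its 2 probe sets (0.93, limma adjusted p = 0.000117), since its other probe set differed by 1.53, and without R2NB replicate 3 (0.24, limma adjusted p = 0.0253). Pex13 turned to -0.12 with the mean over probe sets. Ppara itself rose by 0.52 ± 0.12 (SE, limma adjusted p = 0.00591) with overlapping sets, since its level on R2E17 wild-type replicate 3 was -1.05 and the E17R2 set ran from -1.40 to -0.86. Grouped by organelle, 7 of 14 mitochondrial members (spiral and electron transfer) were called higher with a median of 0.23. Of 13 peroxisomal members (oxidation, assembly and import), 9 were called higher with a median of 0.31, beside 18.4% of all genes. The 5 shuttle genes, all called higher, are in neither group, among them Cpt1a (1.32), Cpt2 (1.07) and Slc25a20 (0.73). The medians therefore depend on this grouping. The difference between these groups was not tested.

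Since PPAR alpha binds DNA as a partner of RXR, the promoters of the members were searched for its element. It was written as a direct repeat of AGGTCA with 1 free base between the copies, on both strands, with at most 2 mismatches in the 12 fixed bases. Windows from 250 bases before to 50 bases after the transcription start came from RefSeq (GRCm38.p6) and existed for 30 of the 35 members. Of these, 4 members (13.3%: Cat, Etfa, Slc25a20 and Acox2) held a match, as did 574 of 14452 measured genes with a window (3.97%), and no member held a match with at most 1 mismatch. The matches of Slc25a20 and Acox2 began 6 and 9 bases after the start. The sequences around the upstream matches of Cat and Etfa follow on the strand of the gene, 5′ to 3′, with the match in capitals. They are shown because they are the only upstream matches among the members.
Cat, chr2:103485325-103485377, minus strand, match 204 bases before the start: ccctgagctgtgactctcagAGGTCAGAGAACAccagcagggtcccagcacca
Etfa, chr9:55512288-55512340, minus strand, match 77 bases before the start and on the opposite strand: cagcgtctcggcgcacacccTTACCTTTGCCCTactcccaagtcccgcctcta
Cat was called in the contrast between the sets and Etfa was not. A match is a description of these letters and was not tested as a binding site.

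Marker genes of the proximal tubule moved with the members. The mean level of 13 proximal tubule markers was 2.24 to 2.85 in the R2E17/R2NB set and 0.15 to 1.19 in the E17R2 set, and 13 of 13 were called higher, with a median difference of 1.52. The markers with the highest mean levels included Lrp2, the endocytic receptor megalin, which ran from 3.79 to 4.36 in the R2E17/R2NB set and from 1.56 to 3.12 in the E17R2 set. Their part in the member differences was not tested. Of 7 liver markers 0 were called, and their mean level was highest on R2NB replicate 4. Of 7 adrenal markers 1 was called lower. Erythroid markers had mean levels of -1.98 to -1.47 in the R2E17/R2NB arrays and of -1.39 to -0.24 in the E17R2 arrays. Brain markers had mean levels of -3.24 to 0.28 over all arrays and striated muscle markers of -2.59 to 2.92. In the fat list, with mean levels of -2.15 to -1.88, Ucp1, Elovl3, Adipoq and Cidec were below the 25th percentile of genes on every array, while Fabp4 was at 4.57 to 5.35. Without R2NB replicate 4 the contrast called 22 members higher and 1 lower, beside 2992 and 7037 of all 18193 genes. Without E17R2 homozygous replicate 9 it called 23 and 1, beside 3446 and 7637 of all genes.

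**Figure D4:**
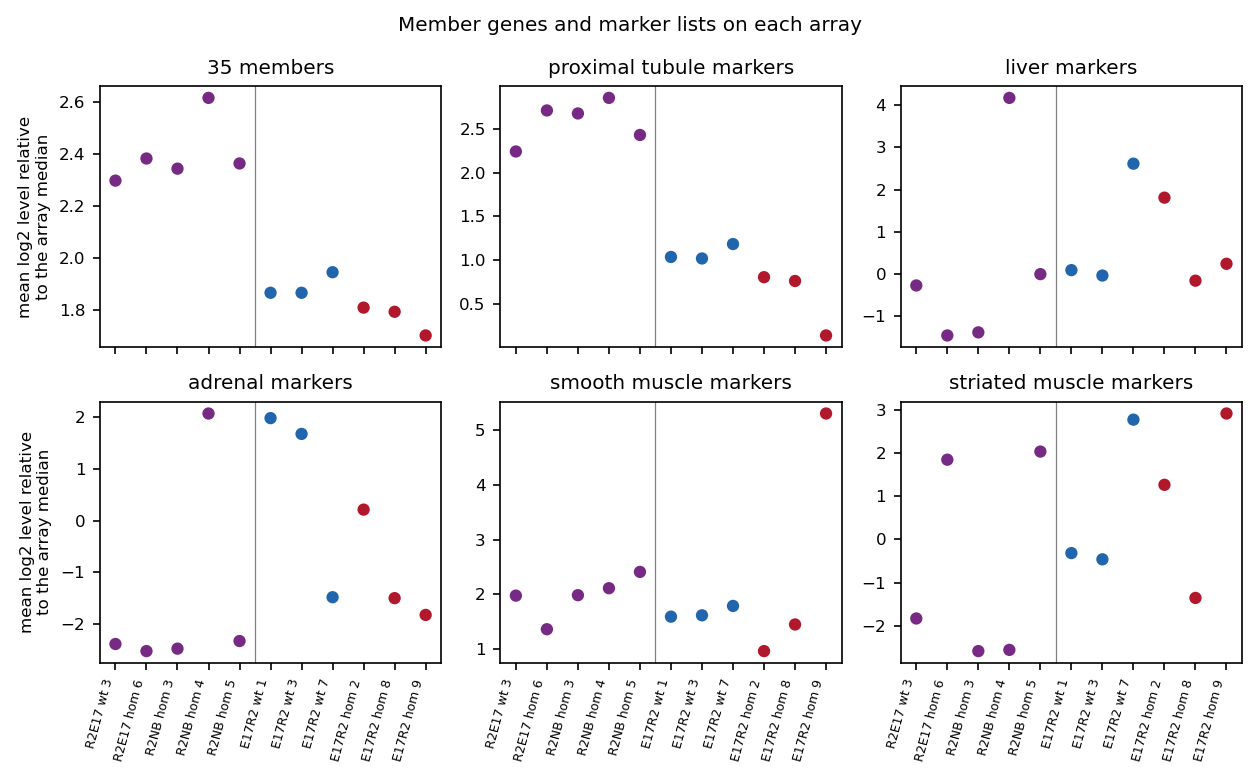
Mean log2 level relative to the array median (vertical axes, scaled per panel) of the 35 members and of 5 marker lists on each array (points; horizontal axis). The R2E17/R2NB set (purple) lies left of the line, with E17R2 wild-type in blue and homozygous in red on the right. Members and proximal tubule markers separate the sets. Liver, adrenal and striated muscle markers are high on several arrays, in both sets. Smooth muscle markers are highest on E17R2 homozygous replicate 9.

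The contrast between the sets mixes genotypes, so it was repeated in balanced forms that share the E17R2 arrays with it. The R2E17 pair against the E17R2 arrays, with genotypes weighted equally, called 19 members higher and 1 lower, beside 14% and 33% of all genes, and the member median was 0.39. The pair has 1 array per genotype, each assumed to vary like the other groups. Without R2E17 wild-type replicate 3 a single homozygous array was set against the 3 E17R2 homozygous arrays under the same assumption. Over the 7 fits that left out an array, this one included, the member median was 0.362 to 0.409. The R2NB arrays against the E17R2 homozygous arrays called 25 members higher and 1 lower, beside 14.5% and 37.2% of all genes, with a member median of 0.45. Leaving out R2NB replicate 4 reduced this to 19 higher and 1 lower. The calls among all 18193 genes fell as well, from 2642 to 2090 higher and from 6768 to 5589 lower. Side by side, Acox2 differed by 2.35 ± 0.31 in the first and 2.40 ± 0.31 in the second (SE), Slc27a2 by 1.89 ± 0.22 and 2.33 ± 0.22, Hao2 by 1.79 ± 0.22 and 1.94 ± 0.22, and Ehhadh by 1.66 ± 0.34 and 2.28 ± 0.34 (limma adjusted p between 0.000132 and 0.00449).

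Further members named in these contrasts were Cpt1a, with 1.11 ± 0.22 for the pair and 1.61 ± 0.22 for R2NB, and Acadm, with 0.998 ± 0.14 and 1.06 ± 0.14 (SE, limma adjusted p between 0.000461 and 0.00385). Cat differed by 1.01 ± 0.16 for the pair and 0.69 ± 0.16 for R2NB, and by 0.72 for the pair without R2E17 wild-type replicate 3. All 5 shuttle genes were called higher in both contrasts, but not all of these calls held. For the pair, Slc25a20 (0.35, limma adjusted p = 0.274) and Crot (0.42, limma adjusted p = 0.135) were lost without R2E17 wild-type replicate 3. For R2NB, Crot was called in 1 of the 6 fits that left out an array, with differences of 0.31 to 0.57. With the mean over probe sets, Crat and Crot were lost in both contrasts and Cpt2 for the pair. Etfa differed by 0.01 ± 0.09 for the pair and by 0.25 ± 0.09 for R2NB (SE, limma adjusted p = 0.0378 for R2NB). Its value for the pair rested on R2E17 wild-type replicate 3 and was 0.26 ± 0.12 without it (SE, limma adjusted p = 0.141), and its call for R2NB was made in 1 of 6 fits that left out an array.

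Within the R2E17/R2NB set, the R2NB arrays were compared with the single R2E17 homozygous array, which was assumed to vary like the other groups. The limma test called 0 of the 35 members, 0 had an unadjusted p under 0.05, and among all genes 0.011% were called higher and 0% lower. The smallest p belonged to Cpt1a, at 3.05, 3.99 and 3.92 on R2NB replicates 3, 4 and 5 against 2.99, a difference of 0.67 ± 0.31 (SE, limma adjusted p = 0.9998). R2NB replicate 3 sat near the R2E17 homozygous array, and without it Cpt1a was called with a difference of 0.97. Acadl was at 3.44, 3.81 and 3.50 against 3.27, Slc25a20 at 2.86, 3.55 and 3.47 against 2.86, and Ppara at -0.50, -0.40 and -0.94 against -0.20. None of these 3 passed.

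Further genes of the pathways were taken from lists made by pathway membership. Whether each product lies in mitochondria or peroxisomes was not checked. Of 30 other mitochondrial fatty acid genes measured, 18 were higher and 3 lower in the R2E17/R2NB set, with a median of 0.44. Of all genes, 18.4% were called higher and 42.1% lower in this contrast. Medium-chain acyl-CoA synthetases were among them: Acsm1 rose by 3.13 ± 0.24 and Acsm2 by 1.89 ± 0.27 (SE, limma adjusted p = 2.15e-05 and 0.000402). Acsm5 was also called higher, at -1.74 to -0.95 in the R2E17/R2NB set against -4.09 to -3.53 in the E17R2 set. The E17R2 levels of Acsm5 lie below the lower quartile of genes and were not shown to be above background, so no size is given. The related member Acsm3 went the other way. Bdh1, which interconverts ketone bodies, rose by 1.29 ± 0.37 (SE, limma adjusted p = 0.0151), but its sets overlapped. It was not called for the R2E17 pair against E17R2 or for R2NB against E17R2 homozygous. The carnitine transporter gene Slc22a5 rose by 0.94 ± 0.14 (SE, limma adjusted p = 0.000456). The 3 lower genes were Acsl6 (-0.82, and -0.41 after quantile normalization), a dim probe set at -3.73 to -2.63, Acaca, the first enzyme of fatty acid synthesis (-0.50), and Hsd17b10 (-0.28).

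Of 42 other peroxisome genes measured, 23 were higher and 2 lower, with a median of 0.34, beside 18.4% and 42.1% of all genes. The thiolase gene Acaa1b rose by 1.36 ± 0.22, the acyl-CoA thioesterase gene Acot4 by 1.02 ± 0.19, Hacl1, which shortens 2-hydroxy acids, by 0.97 ± 0.11, and Dao, D-amino acid oxidase, by 0.97 ± 0.14 (SE, limma adjusted p = 0.000803, 0.00174, 0.000138 and 0.000474). The lower genes were Acaa1a (-0.45), which is closely related to Acaa1b in sequence, so their probe sets may share signal, and Acot12 (-0.62). Acot12 is a dim probe set at -4.02 to -2.99, and after quantile normalization it differed by -0.11 and did not pass (limma adjusted p = 0.447). Of 29 regulators and PPAR alpha target genes measured, 11 were higher and 1 lower, with a median of 0.25, beside the same shares of all genes. Fabp3, a fatty acid binding protein gene, rose by 1.40 ± 0.17, Vnn1 by 1.34 ± 0.28, the fatty acid uptake receptor gene Cd36 by 0.998 ± 0.17 and Hnf4a, a transcription factor of proximal tubule and liver, by 0.76 ± 0.17 (SE, limma adjusted p = 0.000198, 0.00338, 0.00125 and 0.00458). Ucp3 was the lower gene (-0.34), and it did not pass after quantile normalization (-0.17, limma adjusted p = 0.0707).

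The genotype comparison used the E17R2 arrays, 3 against 3. The limma test called 0 of the 35 members and 0% of all genes in either direction. An unadjusted p under 0.05 was reached by 1 member, beside 1347 of all 18193 genes. The member differences were small and mostly negative, with 29 of 35 below 0 and a median of -0.11, while the median over all genes was 0.03. On 11 members every homozygous array lay below every wild-type array and on 0 every one lay above, beside 5.6% and 7.62% of all genes. E17R2 homozygous replicate 9 was the lowest array of its set for 19 of 35 members, as it was for 24.2% of all genes. Without it, 28 of 35 members were below 0 with a median of -0.10, and 14 of 35 (40.0%) lay all below, against 8.87% of all genes. The wild-type arrays then also lay above both homozygous arrays in 10 of 13 proximal tubule markers (76.9%). With all 6 arrays, 11 of 13 of these markers were below 0, with a median of -0.73 and 0 called, and their part in the member differences was not tested. Within this set the liver mean was highest on wild-type replicate 7 and the adrenal mean on wild-type replicate 1. The part of these markers was not tested either.

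Slc27a2 was the member with the unadjusted p under 0.05. Its level was 2.55, 2.44 and 2.74 on wild-type replicates 1, 3 and 7 and 2.19, 2.17 and 1.33 on homozygous replicates 2, 8 and 9. All homozygous arrays were lower, and replicate 9 was lowest by far. The difference was -0.68 ± 0.22 (SE, limma adjusted p = 0.639), and -0.40 without replicate 9. Acadm was at 4.09, 4.05 and 3.99 in wild-type and at 3.88, 3.90 and 3.53 in homozygous kidneys, which do not overlap, with a difference of -0.27 that became -0.15 without replicate 9. Hao2 was at 2.63, 2.44 and 2.29 against 2.33, 2.25 and 1.47, with a difference of -0.44 that became -0.17. Hadhb was at 3.25, 3.14 and 3.31 against 3.18, 3.05 and 3.02, with a difference of -0.15 that became -0.12. The levels of Hao2 and Hadhb overlapped between genotypes, and none of the 4 genes passed the test after adjustment.

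By role, the median genotype difference in the E17R2 arrays was -0.07 for the shuttle, -0.14 for the mitochondrial spiral, -0.10 for electron transfer, -0.08 for peroxisomal oxidation and -0.10 for assembly and import. Ppara differed by -0.18 ± 0.16 (SE, limma adjusted p = 0.834). Of the other pathway genes, 20 of 30 mitochondrial genes, 37 of 42 peroxisome genes and 22 of 29 regulators and targets were below 0, and 0 were called. When both title series were fitted together, 4 against 4, 24 of 35 members were below 0 with a median of -0.05.

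The R2E17 pair holds 1 array per genotype, so its differences have no replicate check. In this pair 19 members were higher and 16 lower in the homozygous array, with a median of 0.04, and the median over all genes was -0.11. The largest differences upward were Acox2 (1.15), Decr2 (1.12), Ppara (0.86) and Eci1 (0.62), and all 3 electron transfer genes were higher, by 0.32 to 0.45. The largest downward were Slc25a20 (-0.73), Cpt1a (-0.63), Cat (-0.54) and Eci2 (-0.50). The wild-type array of the pair was the lowest of the R2E17/R2NB set for 16 of 35 members, as it was for 17.3% of all genes, and it is the array with the highest 3' minus 5' difference. Marker means also differed within the pair. Striated muscle markers were at 1.85 on the homozygous and -1.83 on the wild-type array, and proximal tubule markers at 2.71 and 2.24. Lower on the homozygous array were liver (-1.45 against -0.27), smooth muscle (1.36 against 1.97) and kidney markers (2.16 against 2.44). The part of RNA quality and of these markers in the member differences was not tested.

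**Figure D5:**
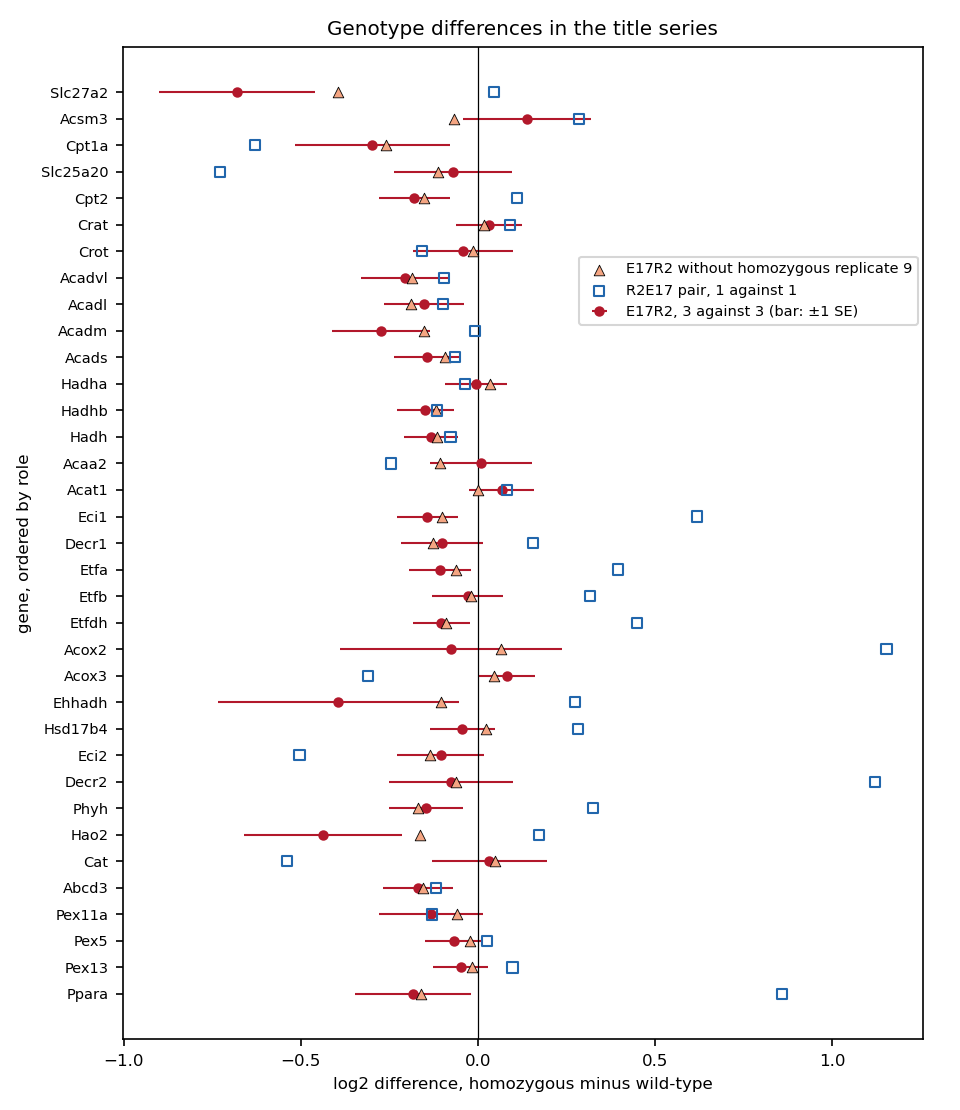
Log2 difference of homozygous minus wild-type (horizontal axis) for each member (vertical axis): circles for the 3 against 3 E17R2 arrays (bars ±1 SE), triangles without E17R2 homozygous replicate 9, squares for the R2E17 pair, which has 1 array per genotype. Circles lie mostly left of 0, with 29 of 35 below it, and squares scatter to both sides.

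Whether the genotype difference itself differed between the title series was tested as an interaction. R2E17 has 1 array per genotype, so the SE and p rest on the assumption that these arrays vary like the other groups. The limma test called 0 of the 35 members, beside 0% of all genes called higher and 0.011% lower. Eci1 had the smallest p: it was at 2.36 and 2.98 on the wild-type and homozygous R2E17 arrays, and at 2.78, 2.84 and 2.90 against 2.68, 2.80 and 2.61 in E17R2. The interaction was 0.76 ± 0.17 (SE, limma adjusted p = 0.343). R2E17 wild-type replicate 3 alone stood low, since the R2NB arrays were at 2.80 to 3.02. Etfdh was at 2.33 and 2.78 in the pair and at 2.01, 2.06 and 2.19 against 2.004, 1.99 and 1.95 in E17R2, an interaction of 0.55 ± 0.16. Decr2 was at -1.10 and 0.02 in the pair and at -0.91, -0.87 and -0.91 against -0.85, -1.06 and -0.997 in E17R2, an interaction of 1.20 ± 0.35. Ppara was at -1.05 and -0.20 in the pair and at -1.20, -1.07 and -0.86 against -1.02, -1.40 and -1.27 in E17R2, an interaction of 1.04 ± 0.33 (SE, limma adjusted p = 0.364). For both genes the E17R2 genotypes overlapped. None of them passed after adjustment.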

How the data were processed

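Arrays of 11 samples were analysed. The authors deposited linear intensity values for 45101 probe sets, and the submitters' processing notes name RMA; the sources used here give neither its version nor a genome build. The design had assumed log2 values, so log2 of the intensity was taken and each array's median over genes subtracted. Free-text labels that speak of human brain contradict the organism, source and tissue labels, which were followed. Of the probe sets, 34945 had 1 gene symbol, 932 several, 9160 were not named here and 64 were controls. All genes entered 1 limma fit (limma 3.58.1, R 4.3.3; 5 group means over 11 arrays, eBayes, 2-sided, Benjamini-Hochberg over all genes, threshold 0.05), checked on simulated data. Values are given for the called members with the 8 largest differences per comparison, or those with the 4 smallest p where fewer than 4 were called. In the contrasts between the sets they are given per array for the R2E17/R2NB set and as lowest, median and highest for the E17R2 set. Up to 5 called genes per direction come from each of 3 lists of other pathway genes, and the marker lists number 9. Hnf4a was named after its value was seen. Members, lists and tests were chosen with earlier results of these data known. Alternatives were quantile normalization, the mean over probe sets, dim genes left out, a trended robust prior, equal group weights and each array left out in turn; fits without R2E17 arrays were added after seeing the data.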

Additional observations from a re-analysis of the deposited data

How the results depend on the processing

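With 1 array left out at a time, the contrast between the sets called 22 to 27 members, the R2E17 pair against E17R2 17 to 20, R2NB against E17R2 homozygous 20 to 25, and R2NB against R2E17 homozygous 0 to 1; the genotype comparison and the interaction called 0 in each. Of the 24 members called between the sets, 22 were called in all 11 of these fits. Member medians ran from 0.342 to 0.567 for R2NB against E17R2 homozygous and from -0.044 to 0.107 for R2NB against R2E17 homozygous. In the R2E17 pair the member median was 0.115 with quantile normalization and 0.039 with the mean over probe sets. With that mean, the difference between the sets turned to -0.144 for Acadl, -0.184 for Hadh, 0.019 for Etfb and -0.12 for Pex13; this mean also moves the array median, by which the 15 members with 1 probe set shifted by 0.083; with equal group weights it turned to -0.005 for Acat1 and -0.022 for Eci1. Leaving out arrays gave -0.021 to 0.038 for Acat1 and -0.011 to 0.155 for Eci1. No paired analysis was possible because the groups compared share fewer than 2 replicate numbers. The number of arrays limits precision. Dim probe sets such as Acsm3, Acox3 and, in the E17R2 set, Acox2 were not shown to be above background.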

Other observations

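Of the 20 members with several probe sets, 11 had the same sign in the contrast between the sets on all of them and 9 did not. Examples of the latter with a dim other probe set are Cpt2 (-0.76, at the 28.2 percentile of probe sets), Etfdh (-0.61, at 9.0) and Acadl (-0.72, at 14.4). Acaa2 had bright other probe sets, with differences of -0.12 and -0.31 at the 92.9 and 84.5 percentiles. For Pex11a, which did not pass on its main probe set, the other probe set differed by 1.53.

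Within the R2E17/R2NB set, 3 members split into 3 higher and 2 lower arrays in a way that did not follow the titles. They are the shuttle genes Cpt1a and Slc25a20 and the peroxisomal oxidation gene Eci2, and they were picked after their values were seen. Cpt1a was at 3.62, 3.99 and 3.92 on R2E17 wild-type replicate 3 and R2NB replicates 4 and 5, and at 2.99 and 3.05 on R2E17 homozygous replicate 6 and R2NB replicate 3. Slc25a20 was at 3.59, 3.55 and 3.47 on the first 3 arrays and at 2.86 on both others. Eci2 was at 3.39, 3.31 and 3.35 on the first 3 and at 2.88 on both others. In the E17R2 set these genes spanned 1.97 to 2.38, 2.45 to 2.66 and 3.00 to 3.21. R2NB replicate 4 was the highest array of its set for 25 of 35 members, as it was for 12.5% of all genes, and E17R2 wild-type replicate 7 for 18 of 35, as for 22.5% of all genes. Each of these arrays also had the highest mean of its set over the liver markers (4.17 and 2.61) and over the proximal tubule markers (2.85 and 1.19). The part of these markers was not tested.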
